A study of Bos taurus with 30 samples.

Results

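Zinc finger genes code for proteins in which a zinc ion holds a short fold of the chain in place. In the most common type, the C2H2 finger, a row of such folds reads DNA sequence, and most of the genes numbered ZNF or ZFP code for DNA-binding proteins of this type, many of them repressors that work through chromatin enzymes. Other zinc folds bind RNA, membrane lipids, ubiquitin or modified histones, so that the shared name covers proteins of unlike function. Here 59 genes described as zinc finger genes were followed in peripheral white blood cells (PWBCs) of cattle while blood was kept cold before processing.

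The members are genes in the part available here of the study's list of tested genes, which is ordered by identifier and holds 1630 genes, with the words zinc finger in their description. There were 60 such genes. All 60 had a level above 1 CPM (counts per 1e6 counts of the library) in at least 5 of the 30 libraries. This was given by the list, as the study had kept only genes above 1 in CPM and per kilobase (FPKM) in at least 5 samples. In the whole count table, 14018 of the 27607 genes passed the CPM filter. ZKSCAN4 was left out because it stands in the study's tables of genes behind its enrichment results for storage. Those tables hold genes that the study itself called at 24 h, so the choice of members used that comparison for the single gene it removed, and ZKSCAN4 is described separately.

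Blood came from 5 crossbred beef heifers (Angus by Simmental) averaging just over a year of age, all synchronized for estrus with GnRH, a progesterone device (CIDR) and PGF2alpha, and sampled when in estrus. From each heifer, jugular blood in EDTA was processed at 1 h or after 3, 6, 8 or 24 h at 4 °C, and coccygeal (tail vein) blood was processed at 1 h. Buffy coats were freed of red cells by lysis, so that each library holds the white cells of 1 tube from 1 animal. The libraries of coccygeal blood at 1 h, jugular blood at 1 h and jugular blood at 24 h, 5 of each, could be assigned to heifers A to E. The other 15 are jugular libraries of 3 to 8 h whose single times and heifers are unknown, and they are given by their range without a test.

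Totals lay between 12412619 and 19492274 counts per library, so that 3 counts amount to between 0.154 and 0.242 CPM. Of the marker lists, all 8 T cell genes (CD4, CD8A, CD2, IL7R, CCR7, CD28, TCF7 and LEF1) were lower at 24 h by edgeR. In this list 7 genes were chosen in the study on these samples, and the summed level was 966 to 1531 CPM at 1 h and 584 to 970 CPM at 24 h in jugular blood. Of 4 monocyte genes, CD14 and VCAN were lower, with a summed level of the list of 330 to 581 CPM at 1 h and 230 to 375 CPM at 24 h. The B cell gene CD79A stood at 439 to 559 CPM at 1 h and 477 to 696 CPM at 24 h, and the platelet or endothelial genes VWF and SELP together, chosen on these samples, at 47.6 to 126 CPM and 81.0 to 231 CPM. Of the other lists PRF1 (cytotoxic cells), IL5RA (eosinophils) and KIT (mast cells) were lower by edgeR, while FCGR3A, GZMB, the neutrophil gene NCF1 and the eosinophil gene CCR3 did not pass the test. The part of these cell type shifts in the changes described next was not tested, and fewer cells of a type cannot be told apart from less RNA per cell in such bulk libraries.

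The 59 genes differed widely in level. Their mean over the 15 assigned libraries ran from 1.48 to 199.7 CPM, with a median of 21.1 CPM, and the transcript lengths given for them ran from 782 to 9484 bases. Per kilobase of transcript, the only scale on which genes are compared here, the levels ran from 0.972 to 56.7 CPM per kb with a median of 8.39.

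The most abundant per kilobase was ZDHHC7, an enzyme that attaches palmitate to proteins, at 56.7 ± 6.62 CPM per kb (SD, n = 15 libraries of 5 heifers). GATAD2A, a subunit of the chromatin-remodeling and histone-deacetylating NuRD complex, followed at 53.1 ± 4.08 CPM per kb. ZBTB18, a BTB domain repressor, stood at 46.8 ± 5.74 CPM per kb, and the RNA-binding splicing factor ZRANB2 at 46.3 ± 8.53. ZPR1, which binds the translation elongation factor eEF1A, stood at 44.0 ± 2.77 CPM per kb. The ranges of neighbors in this order overlap, so their order is not fixed beyond the spread between libraries.

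At the other end stood ZNF135 at 0.972 ± 0.257 CPM per kb and ZNF684 at 1.22 ± 0.592 CPM per kb, named here after their values were seen. ZNF684 passed 1 CPM in 20 of the 30 libraries, whereas ZNF135 passed it in all 30. ZNF135 lies within the span of ZNF329 on the opposite strand (chromosome 18, 65499669 to 65508164 within 65485031 to 65528663), and since counting did not use the strand, reads of the pair cannot be told apart where their exons overlap.

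The gene groups differed in level too. The 31 numbered ZNF and ZFP genes, grouped by name and so including the ubiquitin ligase ZNF598, had a median of 6.68 CPM per kb and reached at most 32.2. The 6 BTB or SCAN factors had a median of 7.63 CPM per kb, and the 8 other chromatin and transcription factors one of 13.2. The remaining 14 genes, which code for RNA-binding, ubiquitin, lipid, membrane and other proteins such as DZIP1, had the highest median of the groups, 19.5 CPM per kb. These are descriptions of the groups, with no test.

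**Figure D1:**
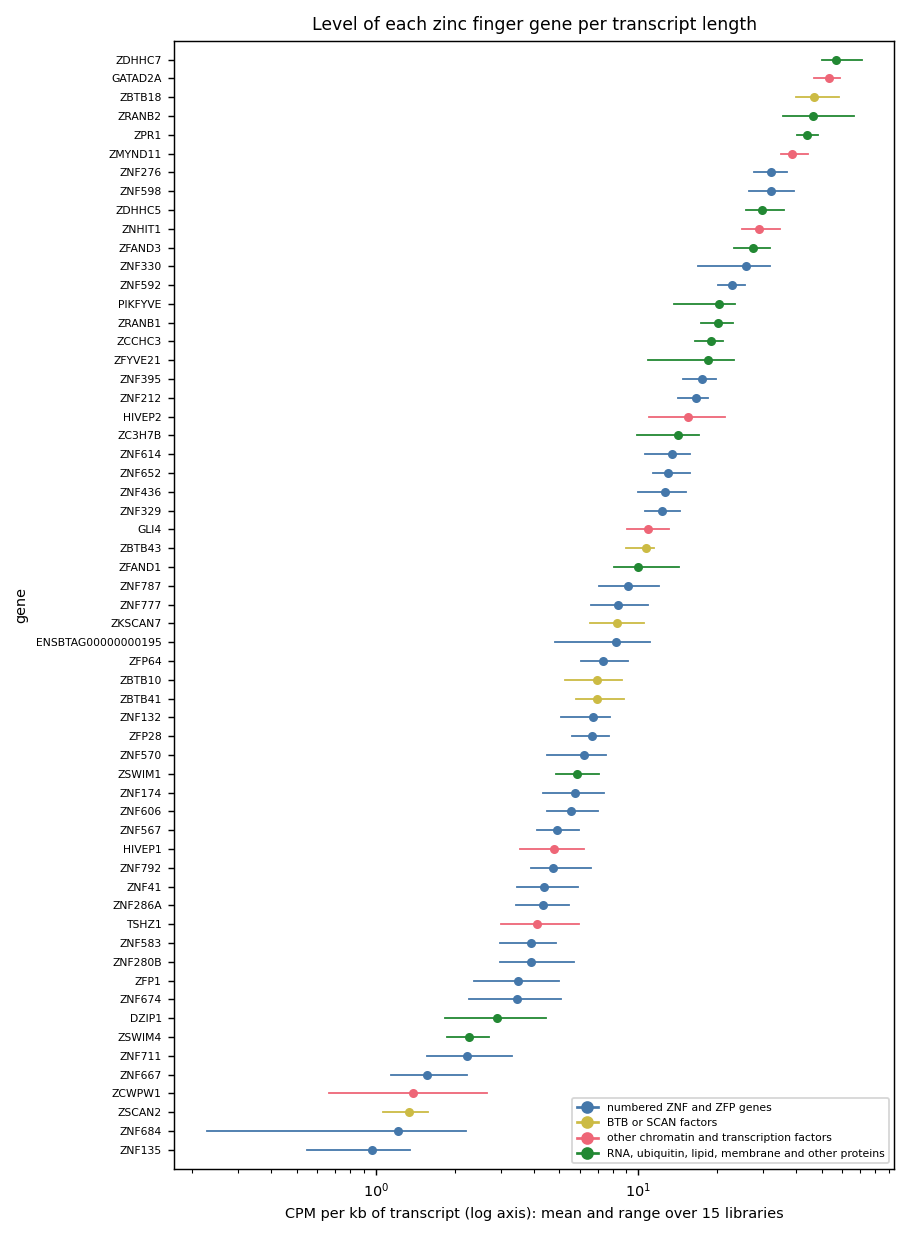
Mean level of each of the 59 genes in CPM per kb of transcript on a log axis (points) and the range over 15 libraries (lines), coloured by gene group. ZDHHC7 is at the top with 56.7 CPM per kb and ZNF135 at the bottom with 0.972, and the lines of neighbors overlap along nearly the whole order.

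Of the 59 genes, 16 (27.1%) lie on chromosome 18 of the assembly ARS-UCD1.2, against 108 of the 1630 listed genes (6.63%). All but 1 of these 16 are numbered ZNF or ZFP genes, the other being ZDHHC7. Several stand close together near the end of the chromosome, among them ZNF583 (63750840 to 63757996), ZNF667 (63719243 to 63741526) and ZFP28 (63880404 to 63907053). The chromosome 18 members had a median log2 fold change at 24 h of -0.02, and the 43 members elsewhere also one of -0.02.

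The first comparison asked whether 24 h of storage changed the abundance of these transcripts in jugular blood. Most of them moved little. Of the 59, 6 members passed edgeR's quasi-likelihood test with heifer as a block, at a false discovery rate (FDR, a Benjamini-Hochberg adjusted p) under 0.05 over all 14018 genes, where the background was 11.9%. HIVEP2, TSHZ1 and ZNF132 were lower at 24 h, by 1.31 to 1.38-fold, and ZNF598, ZNF276 and an unnamed gene described as zinc finger protein 501 were higher, by 1.2 to 1.22-fold. The 3 lower members are 5.08% of the 59, against a background of 5.88% of all genes tested, and the 3 higher ones are likewise 5.08%, against 6.03%. Both shares are close to the background, so these counts of calls do not set the members apart from other genes.

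Over the 59 genes the median of the log2 fold changes was -0.02, with quartiles at -0.08 and 0.11, beside a median of 0.01 and quartiles at -0.13 and 0.14 over all genes tested. The values ran from -0.46 to 0.29. In no member did the absolute log2 fold change exceed 0.5, against 7.63% of all genes and 4.07% of the 1571 other listed genes. ZKSCAN4, left out by the choice of members, was at -0.57, so nothing is read from this count. Of the 59 genes, 52 were within 0.25 of 0, and the share over all genes was not computed. As the quartiles of all genes were also within 0.25 of 0, this does not set the members apart. The study's rule for differential transcript abundance asks for an FDR under 0.05 in both edgeR and DESeq2 and an absolute log2 fold change above 0.5. It was met by 0 of the 59 genes and by 2.58% of all genes, and ZKSCAN4 did not meet it either. By DESeq2 alone 5 members had an FDR under 0.05, against 10.4% of all genes. Without the fold change threshold 5 members passed both tools, all of the 6 but the unnamed gene, and 9 members had an unadjusted edgeR p under 0.05 against 28.1% of all genes. Because the members were screened against genes called at 24 h, nothing is read from that count of 0.

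The sum of the 59 genes lay between 2495 and 2697 CPM in the 5 jugular libraries of 1 h and between 2528 and 2710 CPM in those of 24 h, so that the groups overlap almost throughout. In single heifers the median log2 difference of the members was 0.05 in A, 0.04 in B, -0.05 in C, -0.04 in D and 0.02 in E. Over all genes tested it was 0.012, 0.010, -0.011, -0.003 and 0.031 in the same order. The sign thus differed between animals, and in each it was the same for the members as for all genes. Without heifer E the median log2 fold change over the members turned to 0.03.

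**Figure D2:**
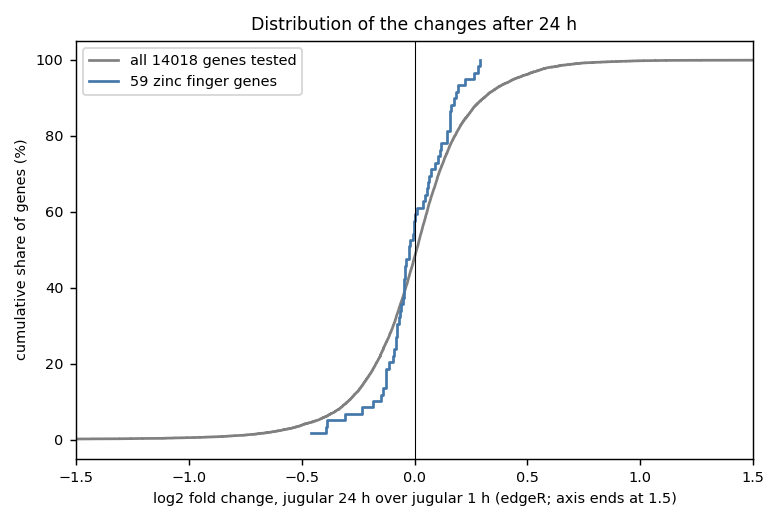
Cumulative share of genes (percent) by log2 fold change of jugular blood at 24 h over 1 h from edgeR, for the 59 zinc finger genes and for all 14018 genes tested. The zinc finger genes span -0.46 to 0.29, and the curve of all genes has longer tails on both sides.

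In what follows, log2 fold changes are those of edgeR, and standard errors and Wald intervals those of DESeq2. HIVEP2 codes for a large zinc finger factor that binds sites like those of NF-kappa B (chromosome 9, 80196707 to 80237534, minus strand). At 1 h its jugular levels were 118, 152, 129, 130 and 143 CPM in heifers A to E, and at 24 h 86.5, 102, 101, 105 and 92.5 CPM. All 5 heifers were lower at 24 h and the groups do not overlap. The log2 fold change was -0.46 (DESeq2 standard error 0.08, 95% Wald interval -0.62 to -0.30), with an edgeR FDR of 0.00356 and a DESeq2 FDR of 1.60e-06. The 15 libraries of 3 to 8 h ran from 94.8 to 148 CPM with a median of 123. HIVEP2 also passed the test in every alternative fit, with FDR values of 1.60e-06 to 0.0485, and it was the only member called when the heifers were not blocked.

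TSHZ1, a zinc finger homeobox transcription factor of the teashirt family, lies on chromosome 24 (3403848 to 3482982, minus strand). Its levels in heifers A to E were 19.8, 22.7, 19.6, 23.0 and 30.5 CPM at 1 h and 15.4, 16.2, 17.4, 19.6 and 18.5 CPM at 24 h. Heifer E was the highest at 1 h, and the highest value at 24 h, that of heifer D, came within rounding of the lowest at 1 h, so that the groups barely miss each other. The log2 fold change was -0.39 (DESeq2 standard error 0.13, edgeR FDR 0.0239), lower in 5 of 5 heifers. With heifer A, B or E left out the edgeR FDR was 0.0611, 0.0729 or 0.0728.

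ZNF132, a C2H2 zinc finger gene of chromosome 18 (65692531 to 65701693, minus strand), was at 14.4, 15.9, 15.4, 16.1 and 16.5 CPM at 1 h and at 10.8, 11.9, 12.9, 13.6 and 10.7 CPM at 24 h. Every library of 24 h was below every jugular library of 1 h. Its log2 fold change was -0.39 (DESeq2 standard error 0.14, edgeR FDR 0.0225, DESeq2 FDR 0.0444). Leaving out heifer A, B or E gave an edgeR FDR of 0.0650, 0.0652 or 0.0668.

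Among the genes that were higher, ZNF598 codes for a ubiquitin ligase that marks collided ribosomes (chromosome 25, 1550964 to 1561670, minus strand). It stood at 77.0, 87.1, 89.5, 84.1 and 96.0 CPM at 1 h and at 97.9, 114, 106, 103 and 104 CPM at 24 h. The groups do not overlap and 5 of 5 heifers were higher. The log2 fold change was 0.28 (DESeq2 standard error 0.08, edgeR FDR 0.0150, DESeq2 FDR 0.00667), and the edgeR FDR was 0.0553 without heifer B.

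ZNF276, a C2H2 zinc finger gene (chromosome 18, 14593024 to 14607123, plus strand), was at 61.3, 53.7, 51.1, 50.3 and 56.7 CPM at 1 h and at 66.5, 65.0, 62.4, 66.3 and 67.0 CPM at 24 h. Here too the groups do not overlap, and the 24 h libraries were the more alike (SD 1.87 against 4.48 CPM). The log2 fold change was 0.26 (DESeq2 standard error 0.09, edgeR FDR 0.0223, DESeq2 FDR 0.0251). With heifer B, C, D or E left out the edgeR FDR rose to between 0.0578 and 0.0650. The end of ZNF276 overlaps FANCA, which lies on the other strand from 14606881 on, and reads there cannot be assigned by strand.

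ENSBTAG00000000195, which has no symbol and is described as zinc finger protein 501 (chromosome 18, 64632169 to 64640989, plus strand), was at 12.2, 15.6, 18.5, 17.1 and 13.5 CPM at 1 h and at 13.4, 21.0, 22.0, 20.4 and 17.8 CPM at 24 h. The groups overlap because heifer A was low at both times, yet 5 of 5 heifers were higher at 24 h. Its log2 fold change of 0.29 (DESeq2 standard error 0.12) had an edgeR FDR of 0.0414 but a DESeq2 FDR of 0.116. The edgeR FDR lay between 0.0631 and 0.127 when any single heifer was left out, so this call rests on all 5 animals.

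In all, 2 of the 59 genes were higher and 3 lower at 24 h with no overlap between the jugular groups, against 1.44% and 2.46% of all genes. The members higher in all 5 heifers numbered 9 and those lower in all 5 numbered 5, where the background was 12.3% and 13.7% of all genes.

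For each of the 6 genes called at 24 h, the median of the 15 libraries of 3 to 8 h was between the medians of 1 h and 24 h. The same was true of 90.2% of all 1669 genes called by edgeR, and of 30 of the 59 members beside 56.0% of all genes tested. The 3 to 8 h medians were 20.1 CPM for TSHZ1, 15.2 for ZNF132, 97.1 for ZNF598, 58.3 for ZNF276 and 16.7 for ENSBTAG00000000195. In every one of these genes the range of 3 to 8 h overlapped that of 1 h.

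**Figure D3:**
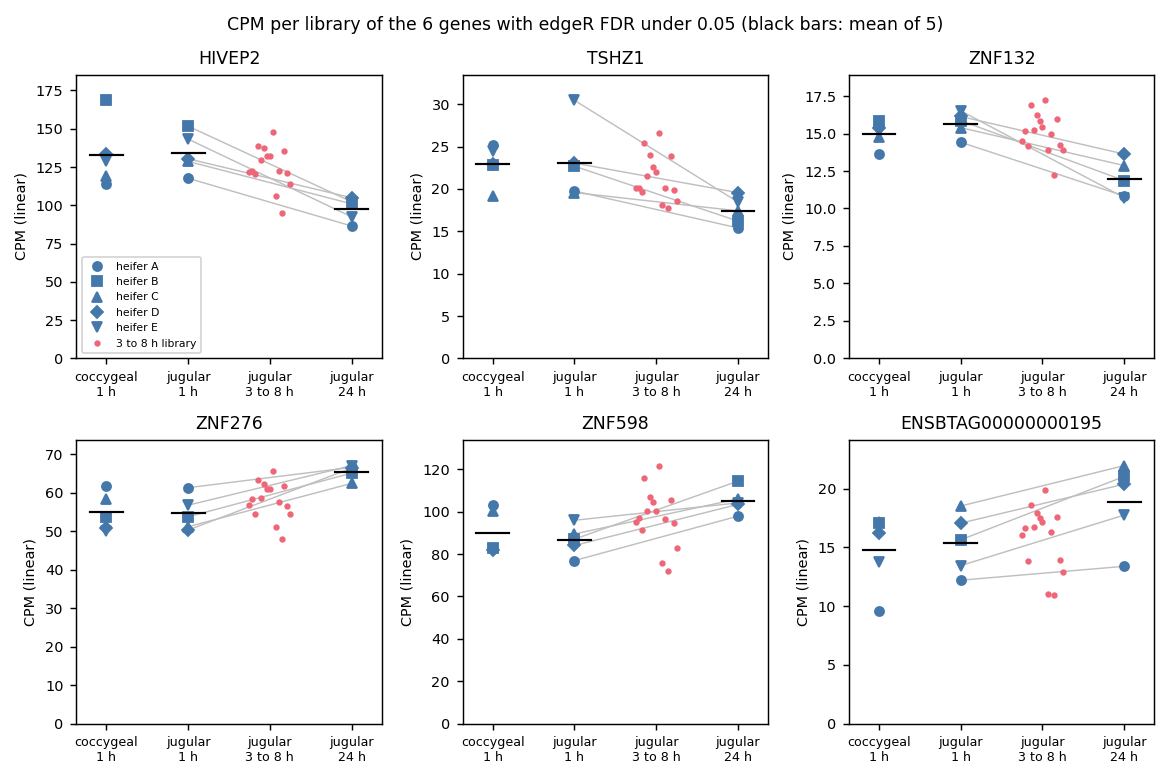
CPM (linear axis from 0) of the 6 genes with an edgeR FDR under 0.05 in every library of each group, with jugular libraries of the same heifer joined and black bars for the mean of 5. HIVEP2, TSHZ1 and ZNF132 are lower at 24 h than at 1 h in each heifer, ZNF276, ZNF598 and ENSBTAG00000000195 higher, and the 15 libraries of 3 to 8 h overlap both ranges.

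ZNF667, a C2H2 zinc finger gene, had the next largest change without passing the test. It was at 4.46, 4.17, 4.57, 6.44 and 5.32 CPM at 1 h and at 3.71, 4.34, 4.48, 4.04 and 3.31 CPM at 24 h. Heifer B was slightly higher at 24 h and heifers D and E clearly lower. The log2 fold change was -0.31 (DESeq2 standard error 0.23, edgeR FDR 0.219), with a Wald interval of -0.77 to 0.14, so that a change of either direction is within its error.

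By gene group, the numbered ZNF and ZFP genes held 3 higher and 1 lower member of 31, and the median of their log2 fold changes was -0.05. This group goes by name, so that the higher ZNF598, a ubiquitin ligase, is counted here and not with the ubiquitin proteins below. Both other called members, HIVEP2 and TSHZ1, belong to the 8 other chromatin and transcription factors, whose median was -0.05. The 6 BTB or SCAN factors had no called member and a median of -0.05. Among the remaining 14 genes, of RNA-binding, ubiquitin, lipid, membrane and other proteins, no member was called either, and their median was 0.02. Of the last group, ZC3H7B, an RNA-binding CCCH zinc finger protein, was nearest to the threshold. Its jugular libraries averaged 91.1 ± 11.4 CPM at 1 h and 103 ± 10.1 CPM after 24 h, higher in each heifer (SD, n = 5). This is a log2 fold change of 0.19 at an edgeR FDR of 0.0679. ZKSCAN7, a SCAN domain factor singled out after its value was seen, was as near to it with 0.22 and an edgeR FDR of 0.0667.

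The abundant members showed small differences with narrow intervals. ZDHHC7 was at 180, 147, 131, 133 and 147 CPM at 1 h and at 184, 146, 142, 134 and 131 CPM at 24 h, with a log2 fold change of 0.00 and a Wald interval of -0.15 to 0.14. GATAD2A was at 176, 216, 191, 183 and 212 CPM at 1 h and at 206, 221, 192, 210 and 200 CPM at 24 h, with a log2 fold change of 0.07 and an edgeR FDR of 0.462. For ZBTB18 the mean of 5 libraries was 175 ± 22.9 CPM (SD) at 1 h beside 188 ± 22.4 CPM after 24 h, and its log2 fold change of 0.10 had an edgeR FDR of 0.403. ZPR1 averaged 88.9 ± 5.24 and 93.0 ± 3.79 CPM, and its log2 fold change was 0.07 (edgeR FDR 0.478).

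ZRANB2 was less even. Its levels were 75.1, 71.9, 98.9, 95.3 and 64.5 CPM at 1 h and 80.9, 92.5, 120, 70.2 and 96.3 CPM at 24 h. It was lower in heifer D and higher in the other 4, and its log2 fold change of 0.18 (DESeq2 standard error 0.11) had an edgeR FDR of 0.434.

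For 47 of the 59 genes (79.7%) the 95% Wald interval of the log2 fold change at 24 h lay wholly between -0.5 and 0.5, against 61.9% of all genes. The background is not alike, since the study also filtered its list on level per kilobase and all genes here were filtered on CPM alone. The standard errors of the members ran from 0.07 to 0.39. The 12 genes whose interval reached beyond 0.5 were mostly the scarce ones, with ZNF684 the widest at -0.55 to 0.96, but they included HIVEP2, TSHZ1, ZNF132 and ENSBTAG00000000195. DESeq2 gave no adjusted p for ZNF684 and ZNF135, which its filter on low counts set aside.

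**Figure D4:**
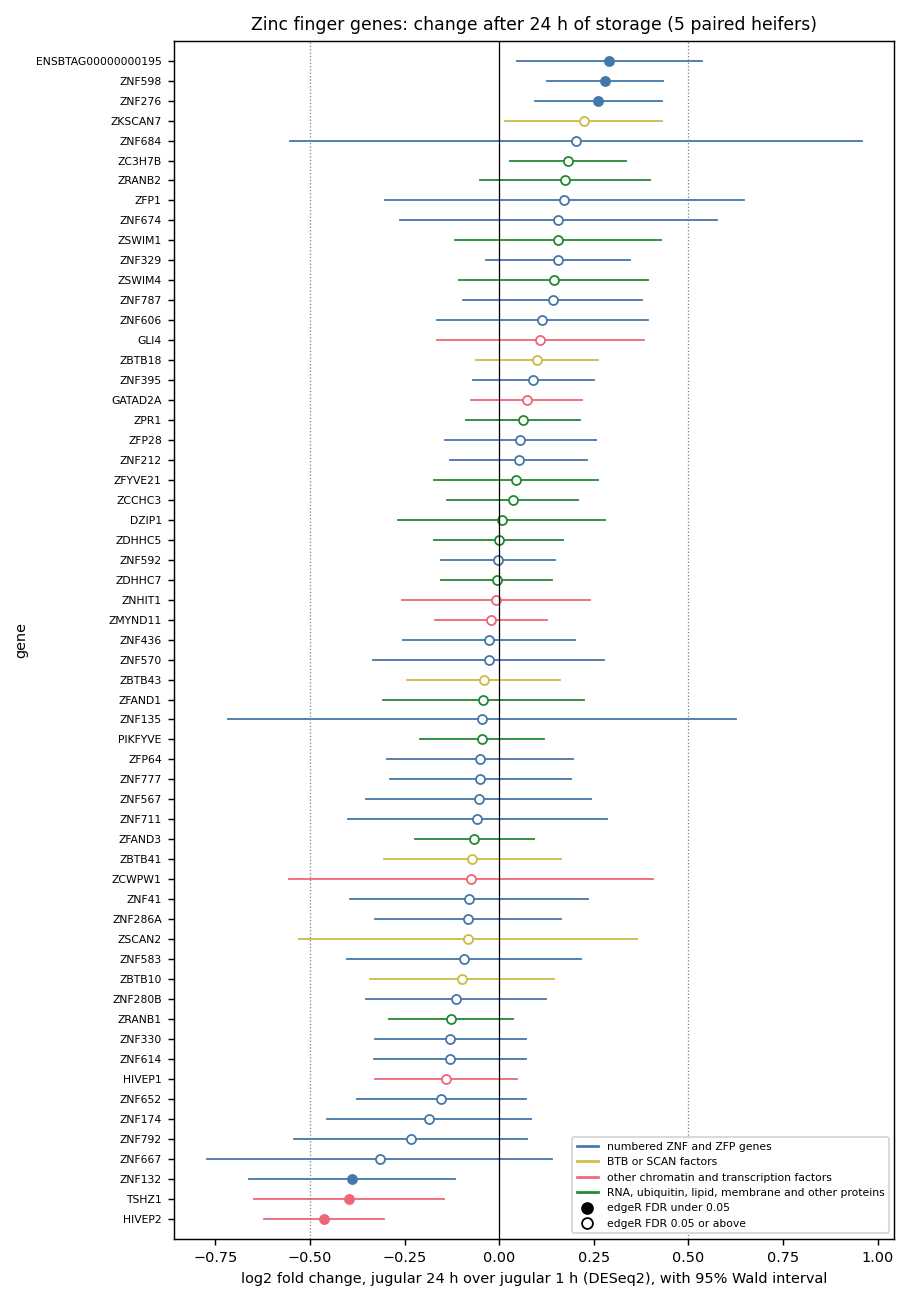
Log2 fold change of each of the 59 genes at 24 h over 1 h in jugular blood (DESeq2, 5 paired heifers) with its 95% Wald interval, coloured by gene group and filled where the edgeR FDR is under 0.05. Filled points stand at either end of the order, HIVEP2 lowest, and 47 of the intervals lie within the dotted lines at -0.5 and 0.5.

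Zinc finger genes outside the 59 that the study's enrichment tables name were chosen on these samples, and their values are a description only. All 5 were lower at 24 h on average, with log2 fold changes between -0.61 and -0.51. ZKSCAN4, a SCAN domain factor, was at 1.90, 3.30, 4.50, 3.13 and 2.66 CPM at 1 h and at 1.46, 3.41, 2.73, 1.58 and 1.34 CPM at 24 h, with an edgeR FDR of 0.0895 here. ZBTB38, which binds methylated DNA, was the only abundant one, with a mean of 104 ± 4.07 CPM (SD, n = 5) at 1 h that compares with 72.9 ± 6.88 CPM after 24 h. ZC3H12C, a ribonuclease of the CCCH type, ZNF81 and ZNF618 had log2 fold changes of -0.61, -0.54 and -0.58 at mean levels of 4.42 to 5.81 CPM at 1 h. Of the 5 genes, 2 met the study's rule here, ZBTB38 and ZC3H12C. ZNF81 passed edgeR (FDR 0.0319) but not DESeq2 (FDR 0.137), and ZNF618 passed neither (edgeR FDR 0.0808, DESeq2 FDR 0.141). The fits used here thus met fewer of these calls than the study made.

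Genes that work with zinc finger proteins on chromatin were read from a second list. It was chosen with earlier results of these data known, so its counts are a description only. Many C2H2 repressors carry a KRAB domain and act through the scaffold TRIM28 and the histone methyltransferase SETDB1. Of 10 chromatin partners, 3 were lower by edgeR and 0 higher, where 5.88% and 6.03% of all genes were, and the median of their log2 fold changes was -0.11. The 3 were the TRIM family cofactors TRIM24 (-0.25, edgeR FDR 0.0450) and TRIM33 (-0.21, edgeR FDR 0.0481) and the corepressor TLE4 (-0.21, edgeR FDR 0.0388), and DESeq2 called none of them. SETDB1 was at 102 CPM at 1 h and 101 CPM at 24 h on average, with a log2 fold change of -0.01. The maintenance DNA methyltransferase DNMT1 had a log2 fold change of -0.10 and an edgeR FDR of 0.328.

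RING and PHD fingers are other zinc-binding folds, found in ubiquitin ligases and in readers of histone marks. Of a list of 13 such and related genes, 2 were higher and 1 lower by edgeR, where 6.03% and 5.88% of all genes were, and the list's median was -0.10 on the log2 scale. This list too was chosen with earlier results of these data known, and its counts are a description only. PHF1, a partner of the Polycomb methyltransferase complex, was higher by 0.40 on the log2 scale (edgeR FDR 0.00430), from 99.5 to 132 CPM. RNF215 was higher by 0.39 (edgeR FDR 0.0177), and RNF169, a ubiquitin reader at DNA breaks, was lower at -0.25 (edgeR FDR 0.0408). DESeq2 called PHF1 and RNF215 but not RNF169 (FDR 0.116). None of these exceeded the fold change threshold of 0.5.

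The second comparison asked whether the vein mattered at 1 h. No difference was detectable for these genes. No member had an FDR under 0.05 between coccygeal and jugular blood in edgeR or in DESeq2, where the background was 0% of all genes in both. At an unadjusted edgeR p under 0.05 the count was also 0, against 1.98% of all genes. The median log2 fold change of coccygeal over jugular blood was -0.01.

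The smallest p was that of PIKFYVE, a lipid kinase of endosomes whose FYVE zinc finger binds a membrane lipid. It was at 92.1, 152, 138, 129 and 135 CPM in coccygeal blood and at 129, 151, 157, 128 and 141 CPM in jugular blood of heifers A to E. Heifer A was the lowest in coccygeal blood and the groups overlap. The log2 fold change of -0.14 had an unadjusted edgeR p of 0.0772 and an edgeR FDR of 0.9997. For 53 of the 59 genes the Wald interval of the vein difference lay between -0.5 and 0.5. It did so for 73.7% of all genes, which unlike the members were not filtered on level per kilobase. For the scarce ZNF684 the interval ran from -1.08 to 0.47.

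The third comparison asked which of these genes differ between animals. All tubes of a heifer were drawn at the same sitting. A lasting trait of the animal therefore cannot be told apart from its state or white cell make-up at that draw. Over the 15 libraries, with vein and time as a factor, 24 of the 59 genes (40.7%) differed between the heifers at an edgeR FDR under 0.05, against a background of 42.1% of all genes. By DESeq2's likelihood ratio test 20 members differed, against 46.6% of all genes. The members' shares were thus near or below those of all genes. In the 24 genes the ratio of the highest to the lowest heifer mean ran from 1.2 to 2.63. Heifer C was the highest of the 5 in 10 of them, and heifers A and D were the lowest in 7 each. How often each heifer was extreme over all genes was not counted, so this is not read as a trait of the members. The count was lower without single heifers, at 15 without B and 14 without D. Over all genes the edgeR calls fell as well, from 5902 to 4399 without B and 3579 without D.

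HIVEP1, the relative of HIVEP2 (chromosome 23, 44281855 to 44414520), had the smallest p between heifers. The means of the 3 libraries were 40.5, 52.7, 56.9, 39.7 and 37.7 CPM in heifers A to E, with an edgeR FDR of 6.57e-04. Heifers B and C stood above the other 3 in every group of libraries. With storage HIVEP1 had a log2 fold change of -0.14 (edgeR FDR 0.229).

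ENSBTAG00000000195 averaged 11.7, 17.9, 19.2, 17.9 and 15 CPM over the 3 libraries of heifers A to E, with an edgeR FDR of 6.98e-04. Heifer A was the lowest in each group. DZIP1, a gene needed for cilium formation (chromosome 12, 73010630 to 73060581), averaged 10.5, 16, 19.4, 11.5 and 12.5 CPM with an edgeR FDR of 7.32e-04. Its ratio of the highest to the lowest heifer was 1.84, while its log2 fold change with storage was 0.01.

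ZC3H7B averaged 98.8, 102, 104, 75.8 and 90.3 CPM (edgeR FDR 0.00275), with heifer D the lowest in each group. ZFYVE21, which carries a lipid-binding FYVE finger (chromosome 21, 68318275 to 68328683), averaged 24.3, 17.8, 21.6, 28.5 and 30.1 CPM (edgeR FDR 0.00295), with heifer B the lowest. Of the 6 genes called at 24 h, HIVEP2 (edgeR FDR 0.0218) and ENSBTAG00000000195 also differed between heifers, and the other 4 did not pass that test.

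The widest ratios belonged to scarce genes, singled out after their values were seen. ZCWPW1, a reader of histone methylation, averaged 3.51, 4.30, 6.84, 2.60 and 3.80 CPM (edgeR FDR 0.00366), a ratio of 2.63. Its end overlaps PILRA, which lies on the other strand of chromosome 25 from 36137411 on, and reads there cannot be assigned by strand. ZNF684 averaged 1.12, 0.858, 2.24, 0.959 and 2.22 CPM (edgeR FDR 0.0113), a ratio of 2.61. Heifer C was the highest in both, with E next to it in ZNF684. At the even end, ZNF592 and ZMYND11, a reader of histone methylation in gene bodies, had ratios of 1.09 and 1.1 and did not pass the test.

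**Figure D5:**
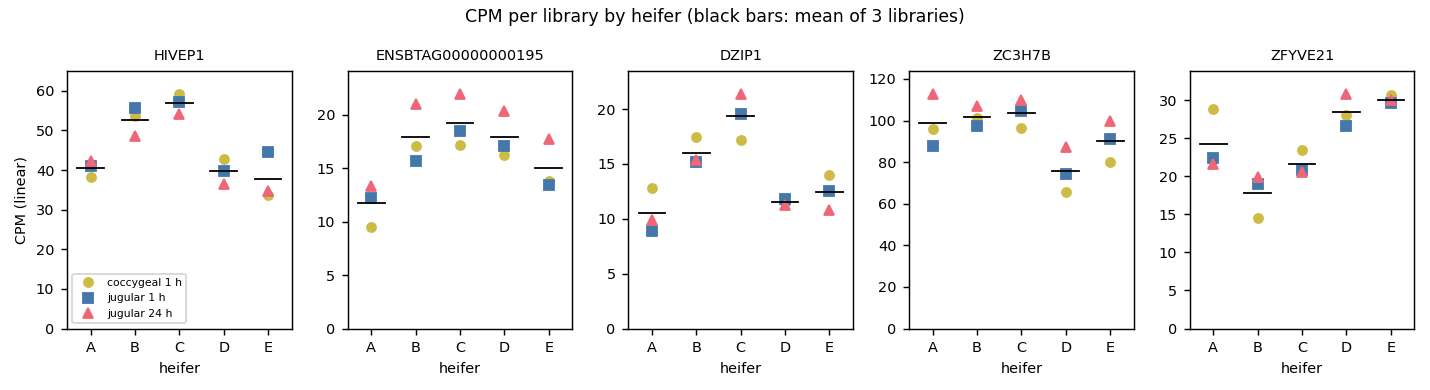
CPM (linear axis from 0) per library in heifers A to E for the 5 genes with the smallest p between heifers, with symbols for the 3 groups of libraries and black bars for the heifer mean. The symbols of a heifer mostly lie together: HIVEP1 is high in B and C, ENSBTAG00000000195 low in A, DZIP1 highest on average in C, ZC3H7B low in D and ZFYVE21 low in B.

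The calls at 24 h depended on the pairing and on single animals, for all genes as for the members. Without the replicate block 1 lower and 0 higher members were called, while edgeR calls over all 14018 genes fell from 1669 to 46. With single heifers left out, the count of higher members ran from 0 to 2, with 0 without B and 1 without C or E, and the count of lower members was 1 without A, B or E. Over all genes the edgeR calls then fell to between 704, without A, and 1255, without C.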

How the data were processed

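The authors trimmed reads with cutadapt 2.8, aligned them to ARS-UCD1.2 with HISAT2 2.2.0, filtered with SAMtools 1.10, dropped duplicate fragments and, without regard to strand, assigned the rest to Ensembl genes by featureCounts (Subread 2.0.1), and deposited raw counts for 27607 genes. Vein, time and heifer of 15 columns came from the authors' supplementary code, and the other 15 are jugular libraries of 3 to 8 h by elimination. Gene names, positions and lengths of transcripts were read from the supplementary tables, and none of their statistics were. Members and gene lists were chosen with earlier results of these data known.

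Genes with CPM above 1 in 5 or more of 30 libraries (14018) were tested with edgeR 4.0.16 (quasi-likelihood F-test, library size scaling, robust, older fitting method) and DESeq2 1.42.0 (Wald test) in R 4.3.3, each comparison on its own 10 libraries with heifer as a block. Heifers were compared by the F-test of the heifer terms over 15 libraries. Deviations of same-heifer libraries from their group means correlated at 0.529 to 0.668 between 1 h and 24 h, and at 0.435 to 0.822 between veins. Differences of single heifers used a prior count of 2. The fits were also run on simulated counts as a check of the code. The spread between heifers in these counts was set, not taken from the data, so no error rate is read from them.

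The genes named are members with an edgeR FDR under 0.05 at 24 h, the 5 largest changes, the 5 most abundant per kb, the 5 smallest p between heifers, the smallest between veins, and the zinc finger genes of the enrichment tables. No sequence or genome was used here. Columns with the authors' own comparisons were not used.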

Additional observations from a re-analysis of the deposited data

Results flagged for a closer look

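Of 51 groups of 5 libraries of the named genes, 1 held a library far from the other 4 by Dixon's criterion, where chance gives about 1 in 20. It was ZDHHC7 in jugular blood at 24 h, at 184 CPM in heifer A against 131 to 146 CPM in the other 4. Heifer A was also the highest at 1 h, at 161 CPM in coccygeal and 180 CPM in jugular blood.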

How the results depend on the processing

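With the replicate block for heifer left out, 0 members were higher and 1 was lower at 24 h. The edgeR calls over all genes then fell from 1669 to 46. Without single heifers the count of higher members ran from 0 to 2, that of lower members from 1 to 3, the median log2 fold change from -0.035 to 0.027 and the count that differed between heifers from 14 to 18. Over all genes the edgeR calls in these fits ran from 704 to 1255 at 24 h and from 3579 to 5521 between heifers. Dropping the fold change threshold raised the members called by both tools from 0 to 5. Under TMM scaling, other filters, the newer fitting method, estimation that is not robust and DESeq2 alone, all these counts stayed within 1.5 times. In no fit did the vein comparison call a member, and none of the 6 genes called at 24 h changed direction. ENSBTAG00000000195 lost its call without the filter (edgeR FDR 0.0513), with DESeq2 alone, unpaired and without any single heifer. Genes near 1 CPM are limited by depth.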
